A study of Homo sapiens with 6 samples.

Results

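Amino acid transporter genes were followed in RNA-seq of HCT116, an established human colorectal cancer cell line, after treatment with PLOD3 siRNA. The set holds every protein-coding gene of the SLC1A, SLC3A, SLC6A, SLC7A, SLC36A, SLC38A and SLC43A families that is reported here, 58 of the 60612 genes in the deposited table and of its 19673 protein-coding genes. The rule uses gene symbols and not levels, although it was set with earlier results of these data known. There were 3 samples treated with PLOD3 siRNA and 3 treated with the control siRNA, named si NC, each for 2 days, and all 6 were HCT116 cells in the same serum-containing medium. PLOD3 encodes a lysyl hydroxylase that also attaches sugars to collagen. Nothing in the labels tells separate cultures from repeat preparations of 1 culture, so the spread behind each p-value is that of the samples as deposited and could be technical.

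Amino acid transporters are membrane proteins that carry amino acids into and out of cells and lysosomes, mostly as exchangers or as carriers driven by sodium or proton gradients. In cancer cells the glutamine and leucine that they supply feed protein synthesis, and the amino acid content of the lysosome is sensed by the kinase complex mTORC1. Transcription of several of them is raised by the factor ATF4 when amino acids run short. Symbol families also take in relatives with other cargo, among them carriers of monoamines and creatine in SLC6 and of nucleobases in SLC43.

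PLOD3 itself had 3.44, 3.40 and 4.05 FPKM (a fragment count divided by transcript length and library depth) in PLOD3 siRNA samples, against 6.40, 7.16 and 6.22 FPKM in si NC samples. It was left at 55.1% of its si NC level, a log2 fold change of -0.85 with a standard error of 0.107 and an edgeR adjusted p of 0.0035. The libraries summed to between 55416555 and 76802428 units of estimated counts. Correlations of log expression were 0.961 to 0.971 within groups and 0.935 to 0.951 between them. The epithelial markers EPCAM, KRT8, KRT18 and KRT19 were abundant, while VIL1 was near 0. The 7 epithelial markers summed to between 562 and 638 FPKM in PLOD3 siRNA samples and between 666 and 720 FPKM in si NC samples. Of the 6 tested, 3 (KRT18, KRT19 and CDH1) passed the edgeR test as lower, beside 19.3% of all genes tested. EPCAM, KRT8 and CDX2 had no call. Without single samples the KRT18 call was kept in 6 of 6 fits, that of CDH1 in 2 and that of KRT19 in 0. With the trend of fold change with GC content removed, KRT18 moved to a log2 fold change of -0.24 (edgeR adjusted p = 0.103) and KRT19 to 0.09 (adjusted p = 0.323), while CDH1 kept its call at -0.77 (adjusted p = 0.0349). With the trends with GC content and transcript length both removed, KRT18 was called lower at -0.37 (adjusted p = 0.0213). CDH1 at -0.65 (adjusted p = 0.0542) and KRT19 at -0.06 (adjusted p = 0.505) then had no call. Summed markers of other cell types stayed under 3 FPKM in every sample. The 8 fibroblast genes summed to 1.52 to 1.93 FPKM in PLOD3 siRNA and 2.66 to 2.89 FPKM in si NC samples, the 7 leukocyte genes to 1.72 to 1.85 FPKM in PLOD3 siRNA and 0.986 to 1.87 FPKM in si NC samples, and the 6 endothelial genes to 0.152 to 0.163 FPKM in PLOD3 siRNA and 0.11 to 0.315 FPKM in si NC samples. COL1A1 made up most of the fibroblast sum, at 1.38 to 1.81 FPKM in PLOD3 siRNA and 2.22 to 2.45 FPKM in si NC samples. It was called lower (edgeR adjusted p = 0.0158), a call lost with the GC trend removed (adjusted p = 0.159). CD68 made up most of the leukocyte sum, at 1.51 to 1.57 FPKM in PLOD3 siRNA and 0.507 to 1.26 FPKM in si NC samples. CD68 had no call (adjusted p = 0.0614). DCN, LUM, PTPRC, CD3E and CDH5 had no counts. The part of these shifts in the results below was not tested, and in bulk RNA fewer cells of a kind and less RNA per cell cannot be told apart.

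The transporter profile was carried by a handful of genes. The 5 most abundant made up 80.1% of the summed mean level of 446 FPKM over the set. In si NC cells SLC38A2, a sodium-coupled carrier of small neutral amino acids that cells induce on amino acid shortage, led with a mean of 157 FPKM. It was followed by SLC7A5 at 97.0 FPKM, which exchanges leucine and other large neutral amino acids for glutamine. SLC1A5, a sodium-dependent exchanger that takes up glutamine, came next at 70.8 FPKM, and SLC3A2, the heavy chain that brings SLC7A5 to the cell surface, at 28.4 FPKM. SLC38A1, a glutamine carrier close to SLC38A2, had 22.3 FPKM. None of these 5 overlapped the next gene in the order across the 3 si NC samples. Further down, SLC7A1, a carrier of arginine and lysine, and SLC6A8, the creatine transporter, both averaged 15.6 FPKM and did not differ beyond their spread. Of the 25 genes with a mean of at least 1 FPKM over the 6 samples, the lowest in si NC was SLC43A2 at 0.932 FPKM.

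**Figure D1:**
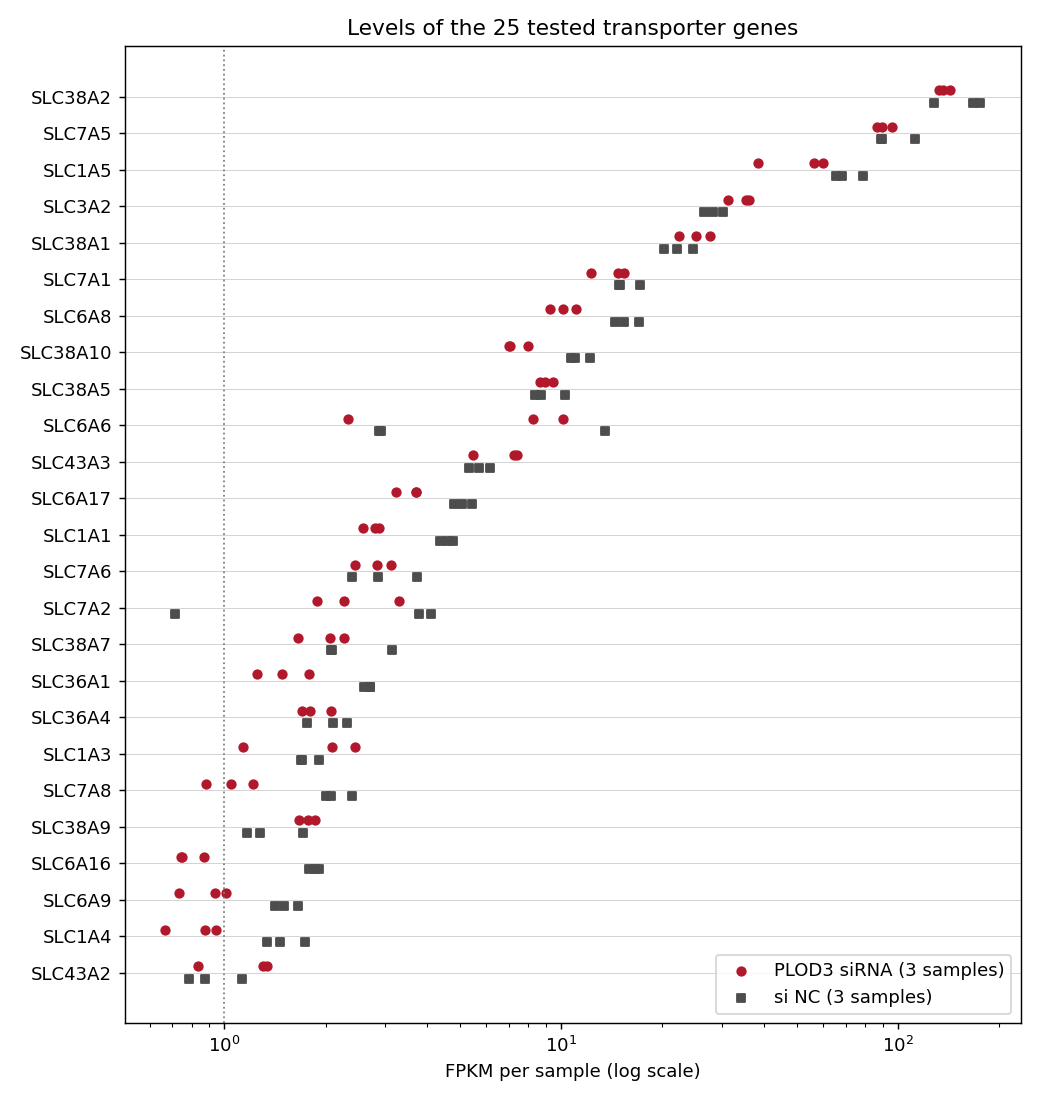
Level of each of the 25 tested transporters in FPKM (log axis) in the 3 PLOD3 siRNA samples and the 3 si NC samples, 1 point per sample, ordered by mean level. SLC38A2, SLC7A5 and SLC1A5 stand above the rest, and the points of SLC6A6 and SLC7A2 spread more widely than those of their neighbours.

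The other 33 genes of the set fell short of this mean and were not tested. Of these, 17 had no counts in any sample and 16 had some. Only 3 of them reached 0.5 FPKM in any sample: SLC43A1 with a highest value of 0.958, SLC38A3 with 0.955 and SLC38A6 with 0.535 FPKM. By family, 5 of 19 SLC6 genes were tested, against 6 of 11 in SLC38, 4 of 7 in SLC1, 2 of 4 in SLC36 and 2 of 3 in SLC43. Because the filter used a mean over both groups, 4 tested genes averaged under 1 FPKM in 1 group only: SLC6A16, SLC1A4 and SLC6A9 in PLOD3 siRNA and SLC43A2 in si NC. Counts over the tested genes describe these genes and do not stand for all 58.

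In PLOD3 siRNA cells, 9 of the 25 tested transporters were lower and 1 was higher by the edgeR quasi-likelihood test at an adjusted p under 0.05. The 9 were SLC6A16, SLC7A8, SLC1A4, SLC36A1, SLC6A9, SLC1A1, SLC38A10, SLC6A8 and SLC6A17, and the higher one was SLC3A2. That is 36% of the tested transporters lower, beside 19.3% of all 12000 genes tested, and 4% higher, beside 16.2% of all genes tested. SLC6A16, SLC1A4 and SLC6A9 among the 9 had passed the filter only through their si NC level. Of the 21 tested transporters with both group means at 1 FPKM or more, 6 (28.6%) were lower and 1 (4.76%) higher. Among all genes held to the same limit, 18.6% were lower and 16.4% higher. By its construction this limit takes out genes that fell below it. Of the lower genes, 8 were down at least 1.5-fold, a size and call met by 9.17% of all genes tested. The median log2 fold change was -0.18 over the tested transporters and 0.00 over all genes tested, and 18 of the 25 were below 0. The samples of the groups did not overlap in FPKM for 10 transporters that were lower in PLOD3 siRNA, the 9 above and SLC1A5, where 27.5% of all genes tested had that pattern. They did not overlap for 1 that was higher, SLC3A2, where 24.6% of all genes tested did. With 3 samples against 3, an exact permutation test of a single gene cannot go below a p of 0.1, so calls rest on the spread edgeR shares across genes. Summed over the set, transporters came to 433, 410 and 421 FPKM in PLOD3 siRNA samples and to 485, 469 and 472 FPKM in si NC samples, all 3 lower. Among the abundant genes that dominate this sum, SLC38A2, SLC7A5 and SLC1A5 had lower means without a call, and SLC3A2 and SLC38A1 higher means. The sum uses FPKM as deposited, without the scaling of the edgeR fit, and its difference was not tested.

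**Figure D2:**
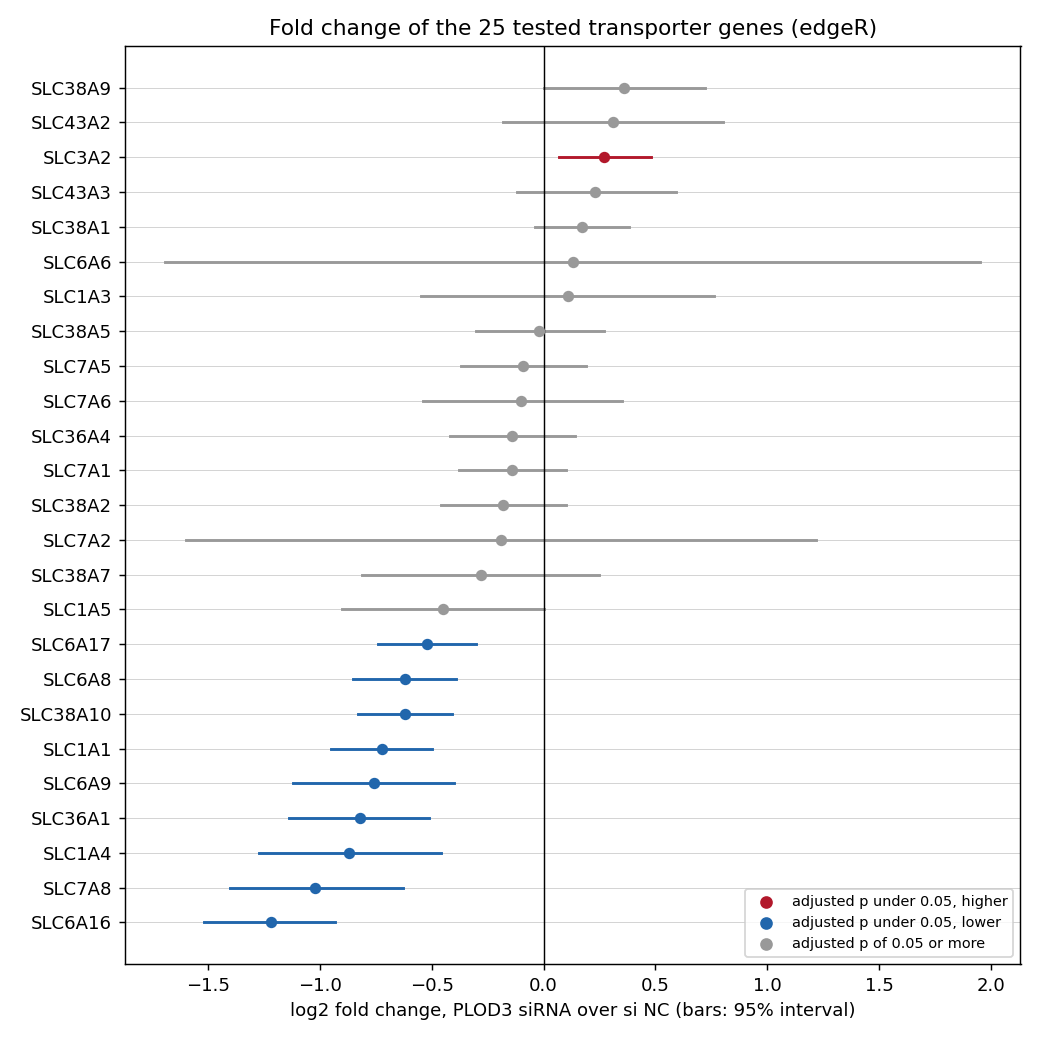
The log2 fold change of each tested transporter, PLOD3 siRNA over si NC, with its 95% interval from edgeR. The 9 genes called lower run between -1.22 and -0.52, SLC3A2 is the only one called higher at 0.27, and the intervals of SLC6A6 and SLC7A2 are the widest.

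Among the SLC1 carriers, 2 of 4 tested genes fell, with a family median log2 fold change of -0.59. Family counts here and below are to be read beside all genes tested, 19.3% lower and 16.2% higher. SLC1A4 passed the filter only through its si NC level. SLC1A1, a high-affinity carrier of glutamate, aspartate and cysteine, had 2.87, 2.81 and 2.59 FPKM in PLOD3 siRNA samples, against 4.79, 4.36 and 4.61 FPKM in si NC samples. All 3 PLOD3 siRNA values lay well below the lowest si NC value, at a log2 fold change of -0.72 (standard error 0.0939, edgeR adjusted p = 0.0038). SLC1A4, an exchanger of alanine, serine and cysteine, had 0.943, 0.669 and 0.879 FPKM in PLOD3 siRNA samples, against 1.34, 1.74 and 1.46 FPKM in si NC samples. The groups did not overlap, and the log2 fold change was -0.87 (standard error 0.168, edgeR adjusted p = 0.0109). The abundant glutamine exchanger SLC1A5 had 59.9, 56.5 and 38.4 FPKM in PLOD3 siRNA samples, against 65.6, 78.8 and 68.2 FPKM in si NC samples. Its groups did not overlap either, but PLOD3 siRNA sample 3 stood apart from the other two, and the log2 fold change of -0.45 (95% interval -0.90 to -0.00) missed the threshold at an edgeR adjusted p of 0.106. The glutamate carrier SLC1A3 averaged 1.89 ± 0.672 FPKM in PLOD3 siRNA and 1.77 ± 0.125 FPKM in si NC cells (SD, n = 3 each), with overlapping samples.

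The SLC6 family, sodium- and chloride-coupled carriers, had 4 of its 5 tested genes lower, beside 19.3% of all genes tested. Its median log2 fold change was -0.62. SLC6A16 and SLC6A9 among the 4 passed the filter only through their si NC level. SLC6A8 and SLC6A17 lost their calls when GC and transcript length were both removed. SLC6A16, a relative with no established cargo, had the lowest fold change of the 25, in a gene whose mean was above 1 FPKM in si NC cells only. It measured 0.750, 0.743 and 0.871 FPKM in PLOD3 siRNA samples, against 1.91, 1.78 and 1.86 FPKM in si NC samples. Both groups were tight and far apart, at a log2 fold change of -1.22 (95% interval -1.52 to -0.93, standard error 0.124, edgeR adjusted p = 0.00255). SLC6A9, the glycine transporter, had 1.01, 0.733 and 0.940 FPKM in PLOD3 siRNA samples, against 1.41, 1.66 and 1.5 FPKM in si NC samples. Here too no samples overlapped, at a log2 fold change of -0.76 (standard error 0.151, edgeR adjusted p = 0.0116).

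The creatine transporter SLC6A8 was the most abundant SLC6 gene. It had 10.1, 9.29 and 11.1 FPKM in PLOD3 siRNA samples, against 14.5, 17 and 15.4 FPKM in si NC samples, a log2 fold change of -0.62 (standard error 0.0965, edgeR adjusted p = 0.00577). SLC6A17, known from synaptic vesicles as a carrier of neutral amino acids, had 3.72, 3.24 and 3.70 FPKM in PLOD3 siRNA samples, against 4.82, 5.42 and 5.08 FPKM in si NC samples. Every PLOD3 siRNA sample of both genes was below every si NC sample, and for SLC6A17 the log2 fold change was -0.52 (standard error 0.0923, edgeR adjusted p = 0.00827). The taurine transporter SLC6A6 behaved differently from all of these. It had 2.33, 8.26 and 10.1 FPKM in PLOD3 siRNA samples and 13.5, 2.87 and 2.91 FPKM in si NC samples. High and low samples occurred in both groups, with ratios of highest to lowest of 4.34 in PLOD3 siRNA and 4.73 in si NC, and 2.35% of all genes tested had a within-group ratio that wide. No direction could be read, at a log2 fold change of 0.13 with a 95% interval of -1.69 to 1.95 (edgeR adjusted p = 0.911).

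The heteromeric exchangers pair a light chain of the SLC7 family with a heavy chain of the SLC3 family. Here 1 of 4 tested genes was higher and 1 was lower. SLC3A2, the heavy chain shared by several light chains, had 35.3, 31.4 and 36.1 FPKM in PLOD3 siRNA samples, against 26.5, 30.3 and 28.3 FPKM in si NC samples. The lowest PLOD3 siRNA sample was only just above the highest si NC sample. The log2 fold change was 0.27 (95% interval 0.07 to 0.48, standard error 0.0841, edgeR adjusted p = 0.0447), and the call held in only 1 of 6 fits that left out 1 sample, the one without si NC sample 2, with adjusted p between 0.0299 and 0.122. Its main partner SLC7A5 had 89.9, 86.7 and 96.1 FPKM in PLOD3 siRNA samples and 89.0, 112 and 89.8 FPKM in si NC samples. The samples overlapped, and the log2 fold change was -0.09 (95% interval -0.37 to 0.19, edgeR adjusted p = 0.565), or 0.05 without si NC sample 2. Per length, there were 2.66 ± 0.107 times as many SLC7A5 as SLC3A2 transcript fragments in PLOD3 siRNA and 3.41 ± 0.27 times as many in si NC cells (SD, n = 3 each), given as a description.

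SLC7A8, a second light chain that carries neutral amino acids with SLC3A2, fell by the most after SLC6A16. It had 0.883, 1.22 and 1.05 FPKM in PLOD3 siRNA samples, against 2.39, 2.07 and 2.00 FPKM in si NC samples. The groups were well apart, at a log2 fold change of -1.02 (standard error 0.161, edgeR adjusted p = 0.00605). SLC7A8 and SLC6A16 were the 2 transporters that fell by more than 2-fold. SLC7A6, a light chain that exchanges cationic for neutral amino acids, averaged 2.80 ± 0.338 FPKM in PLOD3 siRNA and 2.99 ± 0.68 FPKM in si NC cells (SD, n = 3 each; edgeR adjusted p = 0.709), and its log2 fold change was -0.10, or 0.11 without si NC sample 2. Its gene body is overlapped on the opposite strand by SLC7A6OS, at 3.38 to 4.14 FPKM in PLOD3 siRNA and 2.36 to 3.39 FPKM in si NC samples, and without a stated strand setting their reads cannot be told apart.

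**Figure D3:**
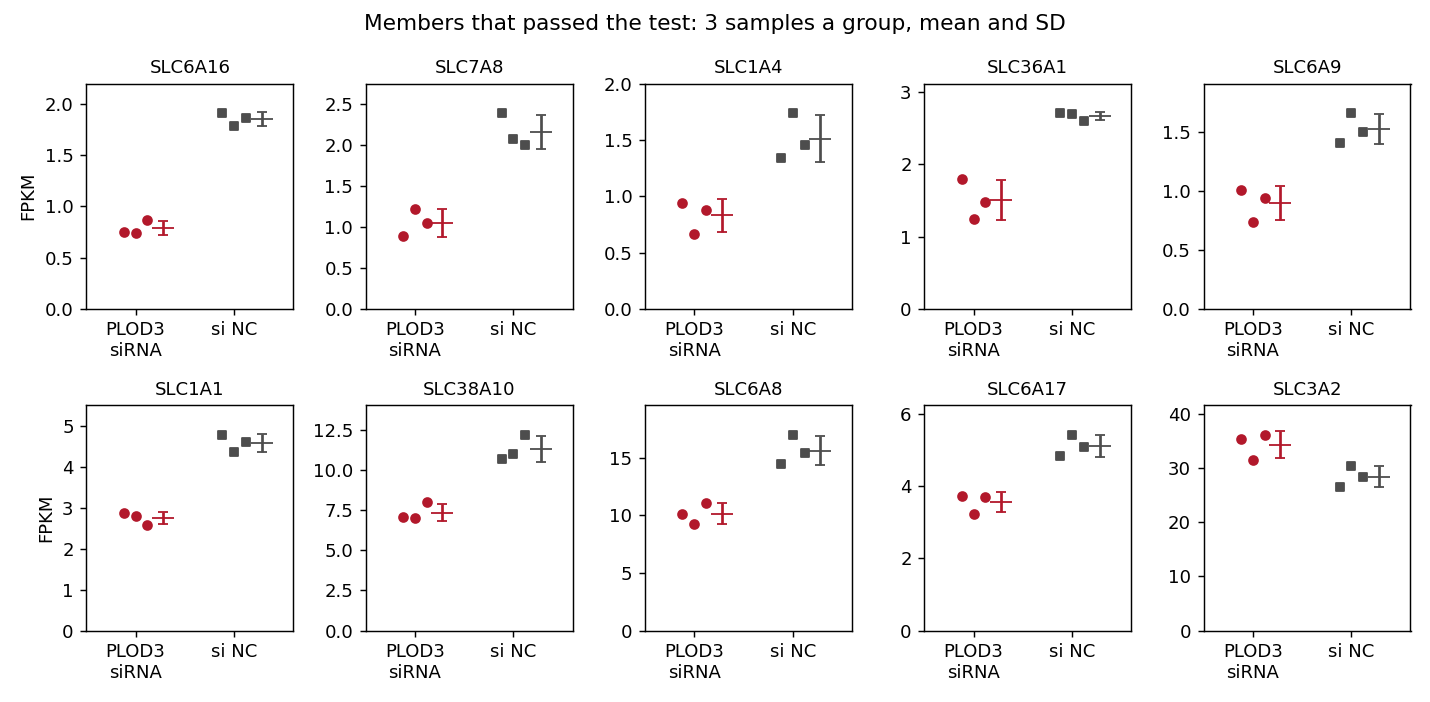
FPKM of the 10 transporters that passed the edgeR test, with the 3 PLOD3 siRNA samples left of the 3 si NC samples; bars are the mean and SD, and each axis starts at 0. In the 9 lower genes every PLOD3 siRNA sample is below every si NC sample, while the gap in SLC3A2 is narrow (31.4 against 30.3 FPKM at its closest).

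The cationic amino acid carriers, which bring in arginine and lysine without a heavy chain, had no call among the 2 tested. SLC7A1 averaged 14.2 ± 1.65 FPKM in PLOD3 siRNA and 15.6 ± 1.26 FPKM in si NC cells (SD, n = 3 each), a log2 fold change of -0.14 with a 95% interval of -0.38 to 0.10 (edgeR adjusted p = 0.316). SLC7A2 had 1.88, 2.27 and 3.30 FPKM in PLOD3 siRNA samples and 4.10, 0.714 and 3.79 FPKM in si NC samples. The si NC sample 2 was far below the other two, a 5.74-fold range within si NC, and a ratio that wide within a group was met by 1.89% of all genes tested. The 95% interval of its log2 fold change, -1.60 to 1.22, leaves large changes in either direction possible.

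In the SLC38 family of sodium-coupled neutral carriers, 1 of 6 tested genes fell. That gene, SLC38A10, had 7.07, 7.01 and 7.99 FPKM in PLOD3 siRNA samples, against 10.7, 11 and 12.2 FPKM in si NC samples. The groups did not overlap, at a log2 fold change of -0.62 (standard error 0.0873, edgeR adjusted p = 0.0046). SLC38A2, the most abundant transporter, had 143, 132 and 136 FPKM in PLOD3 siRNA samples and 175, 128 and 167 FPKM in si NC samples. Its si NC sample 2 lay below all PLOD3 siRNA samples, the log2 fold change was -0.18 (95% interval -0.46 to 0.10, edgeR adjusted p = 0.263), and without that sample it was called lower at an adjusted p of 0.0348. The related SLC38A1 averaged 25 ± 2.59 FPKM in PLOD3 siRNA and 22.3 ± 2.18 FPKM in si NC cells (edgeR adjusted p = 0.183). SLC38A5, which carries glutamine and glycine, was at 9.01 ± 0.406 FPKM in PLOD3 siRNA and 9.14 ± 1.05 FPKM in si NC cells (SD, n = 3 each), with a 95% interval of -0.30 to 0.27 for its log2 fold change.

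Transporters of the lysosomal membrane were spread over several families. SLC36A1, a proton-coupled carrier of small amino acids found on lysosomes, had 1.79, 1.25 and 1.48 FPKM in PLOD3 siRNA samples, against 2.71, 2.70 and 2.60 FPKM in si NC samples. The si NC values were almost equal and all PLOD3 siRNA values lay below them, at a log2 fold change of -0.82 (standard error 0.131, edgeR adjusted p = 0.0061). SLC38A9, the lysosomal arginine sensor that signals to mTORC1, had 1.86, 1.77 and 1.67 FPKM in PLOD3 siRNA samples and 1.71, 1.28 and 1.17 FPKM in si NC samples. Only si NC sample 1 reached into the PLOD3 siRNA range; the log2 fold change was 0.36 (95% interval -0.00 to 0.72, edgeR adjusted p = 0.11), and without that sample it was called higher at an adjusted p of 0.0283. SLC38A7, which exports glutamine and asparagine from lysosomes, averaged 2.00 ± 0.312 FPKM in PLOD3 siRNA and 2.44 ± 0.606 FPKM in si NC cells (edgeR adjusted p = 0.353). The SLC36A1 relative SLC36A4 averaged 1.86 ± 0.199 FPKM in PLOD3 siRNA and 2.06 ± 0.274 FPKM in si NC cells (SD, n = 3 each; edgeR adjusted p = 0.391). The difference between the fold changes of SLC36A1 and SLC38A9 was not tested.

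The SLC43 facilitators had no call among 2 tested genes. SLC43A2, which lets large neutral amino acids pass along their gradient, averaged 1.16 ± 0.28 FPKM in PLOD3 siRNA and 0.932 ± 0.181 FPKM in si NC cells (SD, n = 3 each; edgeR adjusted p = 0.273). SLC43A3, a nucleobase carrier by function, averaged 6.71 ± 1.08 FPKM in PLOD3 siRNA and 5.73 ± 0.406 FPKM in si NC cells (SD, n = 3 each; edgeR adjusted p = 0.262). Samples overlapped between groups for both genes.

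The fold changes moved with the base composition of the transcripts across the whole table, with a Spearman correlation of -0.50 between GC content and log2 fold change over all genes tested and -0.21 over the 25 tested transporters. These are descriptions across genes, which share the same 6 libraries. Median GC content was 52.9% in the 9 lower transporters, 51.0% in the 15 without a call and 49.1% in all genes tested. When the trend with GC was removed in edgeR, 8 of the 9 kept their call, and SLC38A10 (64.3% GC) moved to a log2 fold change of -0.25 (edgeR adjusted p = 0.0934). When GC and transcript length were both removed, SLC6A8 (62.2% GC) moved to -0.18 with an adjusted p of 0.0927 and SLC6A17 (58.2% GC) to -0.06 with an adjusted p of 0.623 as well. SLC6A16, SLC7A8, SLC1A4, SLC36A1, SLC6A9 and SLC1A1 were called lower under both corrections. SLC6A16 barely moved, at -1.18 under both, and SLC1A1 (44.2% GC) moved down to -0.87 and -0.84. Under the same GC correction, SLC3A2 reached a log2 fold change of 0.50 with an adjusted p of 0.0058, and SLC38A2 (38.1% GC) one of -0.47 with an adjusted p of 0.00976. SLC7A5 (61.1% GC) was turned round by the corrections, to 0.22 (adjusted p = 0.124) with GC alone and 0.37 (adjusted p = 0.0381) with GC and length. Other transporters without a call also changed sign, to -0.05 for SLC38A1, -0.06 for SLC1A3 and 0.20 for SLC38A5 with GC, and to 0.10 for SLC38A7 and 0.18 for SLC7A1 with GC and length. SLC1A5 (61.3% GC) moved to -0.13 (edgeR adjusted p = 0.636) with GC and to -0.09 (adjusted p = 0.779) with GC and length. For SLC38A9 the values were 0.19 (adjusted p = 0.337) with GC and 0.16 (adjusted p = 0.427) with GC and length. PLOD3 itself kept its call under the GC correction, at -0.53 with an adjusted p of 0.00868.

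**Figure D4:**
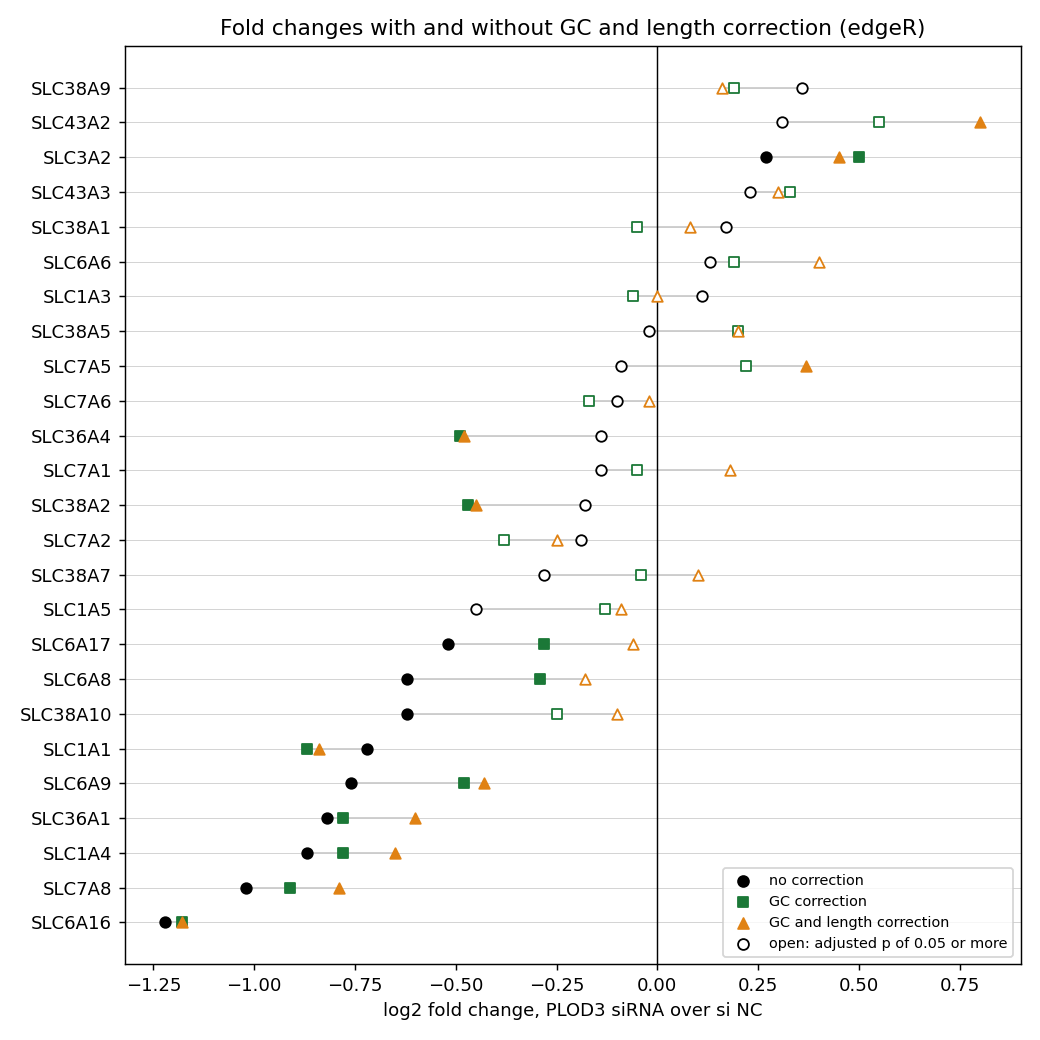
The log2 fold change of each tested transporter in edgeR without correction, with a GC correction and with a GC and length correction; open symbols have an adjusted p of 0.05 or more. SLC6A16, SLC7A8, SLC1A4, SLC36A1, SLC6A9 and SLC1A1 stay filled and below 0 throughout, while SLC7A5 moves to 0.37.

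Sequence just before the transcription start was read for the letters CACGTG, the E-box read on both strands alike and bound by the MYC and MiT/TFE factors, and TGATGNAA, part of the composite element of ATF4 and C/EBP proteins, on both strands. Promoter windows of 250 bases from RefSeq (GRCh38.p14) matched 44 of the 58 transporters. Some genes had several windows for alternative starts, and a gene counted when any of its windows held the letters. This was so for SLC36A1, SLC7A8 and SLC1A5, where other windows of the same gene lacked CACGTG. The same rule was used for all genes with a window. CACGTG was in 9 of the 44, beside 7.73% of the 27305 genes with a window, and among tested transporters in 3 of 9 lower ones (SLC6A16, SLC36A1 and SLC7A8) and 3 of 12 matched ones without a call (SLC1A5, SLC38A5 and SLC7A5). TGATGNAA was in 2 of the 44 (SLC1A3 and SLC1A5), beside 3.89% of all genes with a window. The windows of SLC6A16 (chr19:49325192-49325441, minus strand), SLC7A5 (chr16:87869508-87869757, minus strand) and SLC38A5 (chrX:48470261-48470510, minus strand) are shown because they hold the same letters, in capitals, while SLC6A16 fell and neither of the other two passed the test.
SLC6A16: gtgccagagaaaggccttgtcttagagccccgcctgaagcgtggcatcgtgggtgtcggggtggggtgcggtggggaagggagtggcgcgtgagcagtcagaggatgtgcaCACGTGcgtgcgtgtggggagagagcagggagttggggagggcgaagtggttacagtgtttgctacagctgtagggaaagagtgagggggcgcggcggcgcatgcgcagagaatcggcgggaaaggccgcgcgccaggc
SLC7A5: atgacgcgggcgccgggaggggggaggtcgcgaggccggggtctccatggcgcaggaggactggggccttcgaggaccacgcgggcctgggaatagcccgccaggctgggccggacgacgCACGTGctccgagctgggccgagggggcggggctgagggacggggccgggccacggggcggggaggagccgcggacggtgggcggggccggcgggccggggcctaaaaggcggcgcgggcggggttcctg
SLC38A5: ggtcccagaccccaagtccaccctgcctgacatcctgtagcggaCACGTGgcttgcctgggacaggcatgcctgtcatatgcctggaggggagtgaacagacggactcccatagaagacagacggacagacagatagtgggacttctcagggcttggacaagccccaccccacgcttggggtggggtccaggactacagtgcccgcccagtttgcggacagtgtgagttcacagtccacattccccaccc
The last base printed is the one before the start, and CACGTG begins at position -139 in SLC6A16, -130 in SLC7A5 and -206 in SLC38A5. The SLC7A5 window is 79.6% GC with 34 CG dinucleotides, SLC6A16 65.6% with 21, and SLC38A5 60.8% with 7. A match describes these letters only.

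Genes that work with the transporters were read in the same fit, and the counts of 5 lists of them are to be read beside the 16.2% of all genes tested that were higher and the 19.3% that were lower. In the list of mTORC1 amino acid sensing, 6 of 33 tested genes were higher (18.2%) and 3 were lower (9.09%), with a median log2 fold change of -0.10. LAMTOR3, part of the Ragulator scaffold on the lysosome, had 4.78, 2.64 and 5.31 FPKM in PLOD3 siRNA samples, against 1.83, 1.52 and 1.68 FPKM in si NC samples. That was a log2 fold change of 1.34 (edgeR adjusted p = 0.00858), with PLOD3 siRNA sample 2 well below the other two. SEH1L of the GATOR2 complex was higher by a log2 fold change of 0.49, a call lost under the GC correction (0.20, adjusted p = 0.125), and the leucine sensor SESN2 by 0.41. The arginine sensor subunit CASTOR2 fell by 0.68 on the log2 scale, with 2.66, 2.42 and 3.03 FPKM in PLOD3 siRNA samples against 4.39, 4.38 and 4.21 FPKM in si NC samples (edgeR adjusted p = 0.00422). TSC2, an inhibitor of mTORC1, and RPTOR, its scaffold, were called lower at -0.45 and -0.25. Under the GC correction TSC2 was at -0.16 (edgeR adjusted p = 0.207) and RPTOR at 0.03 (adjusted p = 0.683). With GC and length TSC2 was at 0.07 (adjusted p = 0.514), while RPTOR was turned round and called higher at 0.26 (adjusted p = 0.031). Without single samples the TSC2 call was kept in 2 of 6 fits and the RPTOR call in 1 of 6. The count of lower genes in the list was 1 without PLOD3 siRNA sample 1 or 2 or si NC sample 2 or 3, and the count of higher genes was 3 without si NC sample 3. DESeq2 called 6 higher and 5 lower, and edgeR without si NC sample 1 called 4 and 4. At an unadjusted edgeR p under 0.05, 6 were higher and 8 lower, so the balance of this list depended on the processing.

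In the ATF4 amino acid response list, 6 of 25 tested genes were higher (24%) and 3 lower (12%), with a median log2 fold change of 0.14, and SESN2 counts in this list too. This balance depended on the processing: edgeR called 7 higher and 0 lower with the GC correction (0 lower at an unadjusted p under 0.05 as well), 8 and 0 with GC and length (2 lower unadjusted), and 4 higher and 5 lower among 22 genes with a mean of at least 5 FPKM. Limma on log2(TPM + 1) called 8 higher and 1 lower, and DESeq2 6 and 3. The stress factor DDIT3 had 7.11, 7.11 and 6.72 FPKM in PLOD3 siRNA samples, against 3.00, 3.71 and 3.27 FPKM in si NC samples, a log2 fold change of 1.07 (edgeR adjusted p = 0.00368). ATF3, a stress-induced factor, was higher by 0.75 and EIF2S1, the initiation factor subunit whose phosphorylation raises ATF4 translation, by 0.60, and all 3 calls held under the GC correction. MTHFD2, a mitochondrial folate enzyme, was higher by 0.39, a call lost under the GC correction (0.17, adjusted p = 0.147). The serine synthesis enzyme PHGDH, the factor CEBPB and the pseudokinase TRIB3 were called lower at -0.45, -0.61 and -0.42. All 3 of these calls were lost under the GC correction, where adjusted p lay at 0.184 for PHGDH, 0.351 for CEBPB and 0.551 for TRIB3. At most 1 of the 3 was left without PLOD3 siRNA sample 1 or 3 or si NC sample 2 or 3. ATF4 itself had 40.9, 25.4 and 24.4 FPKM in PLOD3 siRNA samples and 24.1, 26.7 and 25.7 FPKM in si NC samples, so only PLOD3 siRNA sample 1 stood out.

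The list of glutamine, glutamate and asparagine enzymes also took in neighbouring steps such as ASS1 and ASL. Of its 21 tested genes, 1 was higher (4.76%) and 3 were lower (14.3%), with a median log2 fold change of 0.03. ASS1, which joins aspartate and citrulline on the way to arginine, had 20, 19.3 and 20.2 FPKM in PLOD3 siRNA samples, against 39.0, 39.1 and 39.0 FPKM in si NC samples. The samples of each group were almost equal, at a log2 fold change of -0.97 (edgeR adjusted p = 0.00107). GFPT2, which passes the amide of glutamine to hexosamines, fell by 0.98 on the log2 scale, with 3.04 ± 0.221 FPKM in PLOD3 siRNA and 6.05 ± 0.0958 FPKM in si NC cells (SD, n = 3 each). CAD and PPAT start pyrimidine and purine synthesis with glutamine. CAD was lower by a log2 fold change of -0.47, which held under the GC correction but went to 0.00 with GC and length, and PPAT was higher by 0.36, which the GC correction took to 0.06.

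Among 5 tested carriers of amino acids and peptides outside these families, 2 were lower and 0 higher, with a median log2 fold change of -0.26; at an unadjusted edgeR p under 0.05 the counts were 3 and 0, and DESeq2 called 2 and 0. SLC17A5, which exports sialic acid from lysosomes, fell by 0.49 on the log2 scale (edgeR adjusted p = 0.00885) with 12.1, 12 and 11.1 FPKM in PLOD3 siRNA samples against 16.9, 15 and 17.8 FPKM in si NC samples. MFSD12, a carrier needed for cysteine import into melanosomes and lysosomes, fell by 0.58 on the log2 scale, a call lost under the GC correction (adjusted p = 0.136). Of 11 tested partners and regulators of the transporters, 3 were higher and 3 lower (27.3% each), with a median log2 fold change of -0.16, and with the GC correction 1 was higher and 2 were lower. NEDD4, a ubiquitin ligase that removes transporters from the surface, was higher by 0.62 with 1.82 ± 0.126 FPKM in PLOD3 siRNA and 1.18 ± 0.136 FPKM in si NC cells (SD, n = 3 each). The NEDD4 call held under the GC correction (0.33, edgeR adjusted p = 0.0309). NEDD4L, from the same list, went the other way at -0.23 and just missed the threshold (edgeR adjusted p = 0.0501). It had 1.11, 1.07 and 1.18 FPKM in PLOD3 siRNA samples against 1.26, 1.36 and 1.33 FPKM in si NC samples, without overlap. With GC removed, NEDD4L was called lower at -0.40 (adjusted p = 0.0277). With GC and length removed, it had no call at -0.23 (adjusted p = 0.177). ARL6IP1 was higher by 0.59 and LAPTM4B, which recruits the SLC7A5 and SLC3A2 pair to lysosomes, by 0.28, and both calls were lost under the GC correction (adjusted p of 0.0665 for ARL6IP1 and 0.0555 for LAPTM4B). The adhesion receptor CD44 was called lower at -0.80, with 14.8, 13.9 and 16.1 FPKM in PLOD3 siRNA samples against 35.5, 23.6 and 19.2 FPKM in si NC samples. The galectin LGALS3 was called lower at -0.39 and BSG, a chaperone of membrane carriers, at -0.35. Under the GC correction LGALS3 was at -0.20 (adjusted p = 0.18) and BSG at -0.02 (adjusted p = 0.931), so both calls were lost, while CD44 was kept at -0.90 (adjusted p = 0.0204). With GC and length removed, LGALS3 was called lower again at -0.41 (edgeR adjusted p = 0.00995). CD44 was kept there at -0.77 (adjusted p = 0.0347), and BSG had no call at -0.07 (adjusted p = 0.738). Left-out samples kept the CD44 call in 2 of 6 fits, those of LGALS3 and LAPTM4B in 3 of 6 each and that of BSG in 1 of 6. At most 1 of the 3 lower calls was left without any single sample other than si NC sample 1.

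**Figure D5:**
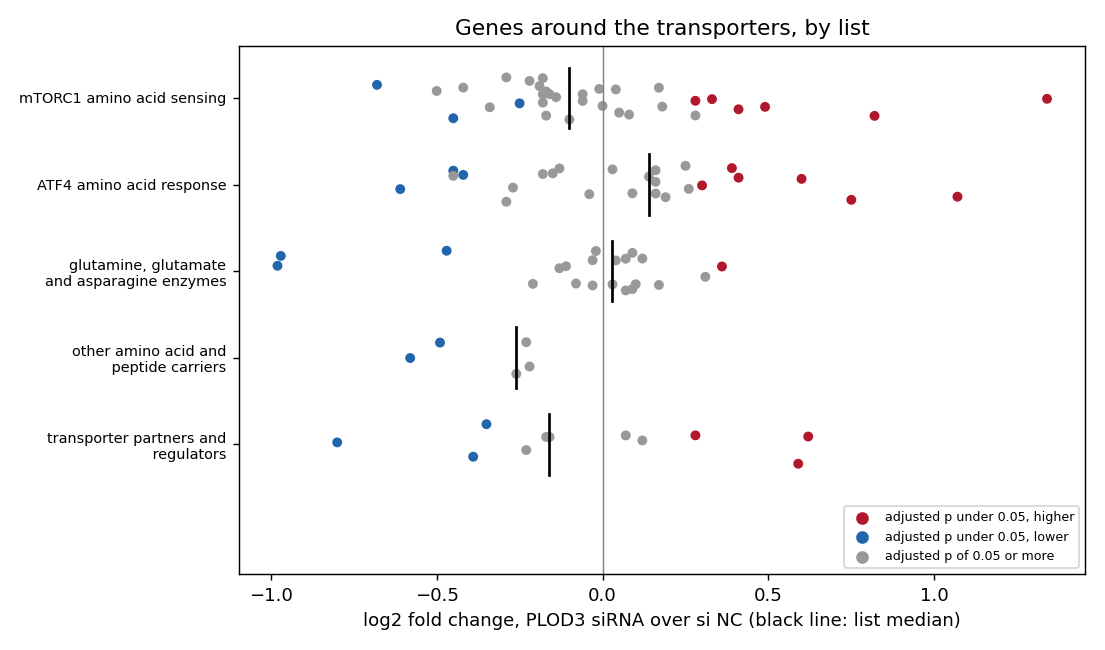
The log2 fold change of every tested gene of the 5 lists, PLOD3 siRNA over si NC, with the list median as a black line; colour marks an edgeR adjusted p under 0.05. Medians lie between -0.26 and 0.14, and the lists hold genes called in both directions except the other carriers, where 2 of 5 are lower.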

How the data were processed

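RNA of 6 HCT116 samples was sequenced after ribosomal RNA depletion, per the labels' protocols. Cutadapt 1.9, HISAT2 2.0.4 and StringTie 1.3.4d are named in the submitters' processing notes; genome build, annotation, strand setting and counting are unstated in the labels and headers used here. The authors deposited FPKM per gene and sample, and estimated counts, whole and not normalized, per the file headers. Low counts piled up at 4 (on average 1490 genes, against 558 at 3 and 312 at 5), at 8 (745, against 336 at 7 and 211 at 9) and at 12 (394, against 264 at 11 and 156 at 13), so a count unit may be less than a read pair; the counting step is unknown. Of the identifiers, 96.3% were in GENCODE for GRCh38, and all 58 transporters overlapped their annotated position. One further gene with a matching symbol is not reported here.

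Counts were tested with edgeR 4.0.16 in R 4.3.3 (quasi-likelihood, TMM, two-sided, Benjamini-Hochberg over the 12000 genes with a mean of at least 1 FPKM, threshold 0.05). The procedure was also run on simulated counts. These had far fewer changed genes than were called here and no trend with GC, so the run does not show how the procedure performs on these data. Samples were grouped by title and no replicate block was used. Intervals are at 95%. GC and length were removed as loess offsets (span 0.5) for the 11968 genes with a value in GENCODE. Other alternatives were limma 3.58.1 on log2 values, DESeq2 1.42.0, other filters and scalings, and leaving out each sample. Every tested transporter is named, and untested ones where a sample reached 0.5 FPKM. Per list, up to 4 called genes of smallest p are named, plus directions with few calls. ATF4 and NEDD4L were added after their values were seen. The transporters and lists were chosen with earlier results of these data known.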

Additional observations from a re-analysis of the deposited data

How the results depend on the processing

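All 9 transporters called lower kept that call in each of the 6 fits without 1 sample, and stayed below 0 under every alternative run on them. The 9 calls were also kept by DESeq2, by counts divided by 4, without a filter, and by limma on log2(FPKM + 0.1), log2(FPKM + 1), log2(TPM + 1) and quantile-normalized values. With a mean of at least 5 FPKM required, 11 transporters were tested and 2 were lower (SLC38A10 and SLC6A8). The count of transporters called higher, 1 in the reported fit (SLC3A2), ranged from 0 to 1 without single samples and was 3 with the GC and length correction (SLC3A2, SLC7A5 and SLC43A2). It was 0 with limma on log2(FPKM + 0.1) and log2(FPKM + 1), with at least 5 FPKM, with no filter, with quantile normalization and with the replicate block; at an unadjusted p under 0.05 these fits had 1, 1, 1, 3, 2 and 3, and DESeq2 called 1. SLC7A5 was reversed to 0.37 with GC and length. SLC36A4 was called lower under the GC correction at -0.49 (edgeR adjusted p = 0.0127), and SLC1A5 by limma on quantile-normalized values (adjusted p = 0.0471). On log2(TPM + 1) the median of all genes shifted by 0.10 and the share of higher among all calls was 62.8%, against 45.6% in the reported fit; the transporters' counts there were 1 higher and 9 lower, and causes were not tested. Samples with the same number did not deviate together (correlations of 0.0485, -0.0105 and -0.0226), and the replicate block gave 9 lower and 0 higher. The block with the GC correction gave 6 lower and 1 higher. Of the 9, only SLC6A16, SLC7A8, SLC36A1 and SLC1A1 kept their call there, and the other lower ones were SLC38A2 and SLC36A4. SLC38A10, SLC6A8, SLC6A17, SLC1A4 (edgeR adjusted p = 0.0587) and SLC6A9 (0.0905) missed the threshold. The low levels of SLC6A16, SLC1A4, SLC6A9 and SLC43A2, close to 1 FPKM, limit the precision of their values. Counting only genes with both group means at 1 FPKM or more was chosen after seeing the data.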

Other observations

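Some other rows overlap or copy transporter genes and lie outside the transporter set. Those with a mean of at least 1 FPKM were among all genes tested. MIR4324, a microRNA row inside SLC6A16 on the same strand, had 1.52, 0.874 and 0.853 FPKM in PLOD3 siRNA samples, against 3.01, 2.48 and 4.19 FPKM in si NC samples, the same order of groups as its host. Reads of the host and of the row cannot be told apart. CCDC24, which overlaps the end of SLC6A9 on the opposite strand, had 2.19, 2.35 and 2.34 FPKM in PLOD3 siRNA samples and 2.14, 2.79 and 2.15 FPKM in si NC samples, with no such gap. Without a stated strand setting, reads of SLC6A9 and CCDC24 in their shared stretch cannot be told apart. The SLC7A5 pseudogenes SLC7A5P2 and SLC7A5P1 averaged 0.404 and 0.457 FPKM in PLOD3 siRNA cells and 0.334 and 0.266 FPKM in si NC cells, with overlapping samples, far below SLC7A5. How the authors' counting treated reads shared with these near-copies is unknown.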
